A study of Homo sapiens with 4 samples.

Results

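The sites described here are GRE half-sites (AGAACA or its complement TGTTCT) that lay over 1000 and at most 5000 bp from the nearest transcriptional start site (TSS) in DNA immunoprecipitated with GR. Each site is 1 cytosine on 1 strand, and the sites were taken from both GR anti-Flag tables by the distance the authors listed, whatever their methylation. This gave 711 distinct sites of the 8107 that the GR library held, 117 in AGAACA and 594 in TGTTCT. Of these, 5 lay in the mitochondrial genome and are given apart, which left 706 sites (115 AGAACA and 591 TGTTCT) nearest to 655 genes. A gene was nearest to more than 1 site in 47 cases, with at most 3 sites per gene.

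The reads came from BisChIP-seq, in which immunoprecipitated chromatin is bisulfite-converted before sequencing, in HEK-293T cells, a human embryonic kidney line. In the GR cells, GR-pCMV14 and DNMT3A-pLX304 were co-transfected, expressed for 24 h and followed by 4 nM dexamethasone, a GR ligand, and the DNA was pulled down with anti-Flag antibody or with control IgG. In the BMAL1-CLOCK cells, BMAL1-pCMV14, CLOCK-pCMV14 and DNMT3A-pLX304 were introduced in the same manner without dexamethasone, again with an anti-Flag and an IgG library. All groups therefore carried extra DNMT3A and an overexpressed Flag-tagged factor, and no group lacked either. There was 1 library per group, so no value has a replicate error, and every test below compares sites or reads of these libraries and not conditions. The listed sites held 51518 reads in the GR anti-Flag library, 14143 in GR IgG and 21042 in BMAL1-CLOCK anti-Flag, with a median of 4 reads per site in each. The BMAL1-CLOCK IgG library had only 2 listed sites, none of them in this distance range, and gave no background for it. All 164 of its 164 listed reads counted as methylated.

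GR is a ligand-activated nuclear receptor that moves into the nucleus on binding a glucocorticoid and binds as a dimer to the glucocorticoid response element (GRE), a pair of inverted half-sites with a short spacer. A single half-site can also be bound. DNMT3A is a de novo DNA methyltransferase that, besides CpG, methylates cytosines in a non-CpG context, mostly before adenine. BMAL1 and CLOCK are the activators of the circadian clock and bind the E-box CACGTG as a pair.

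The hexamers are shown because the level of each site belongs to a single base in them, given in capitals. For GR this was the fifth base from the 5′ end and for the E-box the first, and none of the 3 cytosines is followed by a guanine.
GRE half-site, AGAACA table: agaaCa
GRE half-site, TGTTCT table: tgttCt
E-box, BMAL1-CLOCK table: Cacgtg
The measured cytosine of AGAACA stood before adenine and that of TGTTCT before thymine. AGAACA and TGTTCT are the 2 strands of the same hexamer, so a hexamer read on both strands gives a site in each table. In the range from 1 to 5 kb this was so for 3 hexamers, nearest NR3C1, DQ590589 and PDE4DIP. The spacing of a full GRE, AGAACA and TGTTCT with 3 bases between them, was not found between any sites of the range, and 3 such pairs were found in the GR library at all distances.

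Most of the half-sites between 1 and 5 kb carried no methylated read, and those that did were mostly highly methylated. No methylated read was found at 676 of the 706 sites (95.8%). At least 1 methylated read was found at 30 sites (4.25%, exact 95% interval 2.89 to 6.01%), where the GR library had 2.93% over all distances. A level of 50% or above, called highly methylated here, was reached by 20 sites (2.83%, interval 1.74 to 4.34%), against 1.51% over all distances. Of these, 18 were among the TGTTCT sites (3.05%, interval 1.81 to 4.77%; all distances 1.55%) and 2 among the AGAACA sites (1.74%, interval 0.211 to 6.14%; all distances 1.22%). Every read was methylated at 11 sites, all in TGTTCT (1.56% of the range, 0.68% over all distances). Only 10 sites had methylated reads at a level below 50%. The intervals cover counting error only, and neighbouring sites were treated as independent. A cytosine that bisulfite failed to convert would also count as methylated, and no conversion rate is given in the sources used here.

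The 706 sites held 9838 reads, of which 134 were methylated. The pair of cytosines at NR3C1 alone held 68.3% of the reads, and without it 118 of 3121 reads were methylated (3.78%). The 20 highly methylated sites held 127 reads, 110 of them methylated, which was 82.1% of all methylated reads in the range. Depth was low, with exactly 4 reads, the minimum that the authors kept, at 543 sites (76.9%) and 10 or more reads at 10 sites. The share of highly methylated sites was 1.10% (6 of 543) at exactly 4 reads, 7.19% (11 of 153) at 5 to 9 reads and 30% (3 of 10) at 10 or more.

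**Figure D1:**
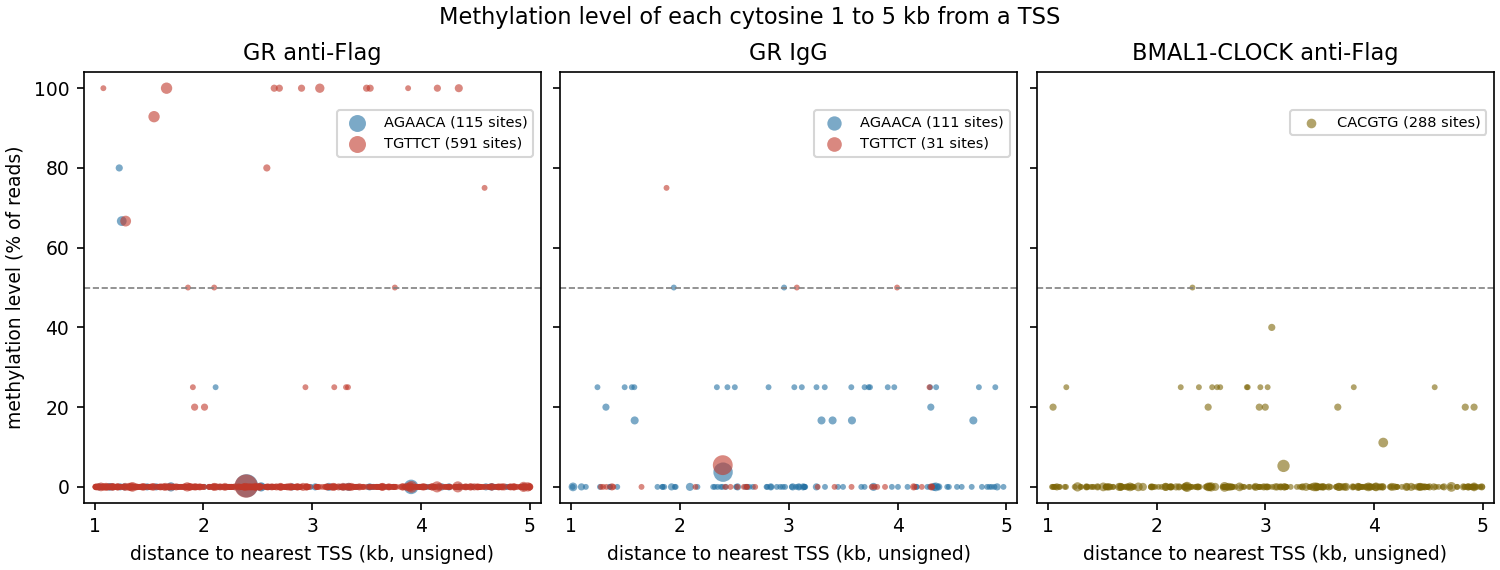
Each point is a cytosine between 1 and 5 kb from a TSS in the GR anti-Flag, GR IgG or BMAL1-CLOCK anti-Flag library, with its unsigned distance (kb) on the x axis, its methylation level (% of reads) on the y axis, point area growing with reads and a dashed line at 50%. In GR, 676 of 706 points sit at 0 and 11 at 100%, while the IgG and BMAL1-CLOCK points above 0 lie mostly at 25% or below.

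The highly methylated sites were nearest to 16 genes, and for 4 of these genes both members of a pair of sites were high. Positions are those of hg18 as listed by the authors. The 2 sites with the most reads among them lay near ACTG1, which encodes cytoplasmic gamma-actin. The TGTTCT cytosine at 77091808 of chromosome 17 (plus strand), 1661 bp from the TSS, was methylated in 14 of 14 reads. A second, at 77091923 on the minus strand, 1546 bp from the TSS and 115 bp from the first, was methylated in 13 of 14 reads. Both strands of the DNA were thus highly methylated within this stretch near ACTG1, at different hexamers.

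PCBP1, the gene of a poly(C)-binding protein that acts on RNA, had the deepest AGAACA site among the highly methylated ones and a TGTTCT site beside it. The AGAACA cytosine at 70169453 of chromosome 2 (plus strand), 1249 bp from the TSS, was methylated in 6 of 9 reads. The TGTTCT cytosine 36 bp away, at 70169489, was methylated in 8 of 12 reads. Both were at 66.7%, a level between the fully methylated and the unmethylated sites that was rare in the range.

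Near AK095546, a cDNA record without a gene symbol, TGTTCT cytosines at 16074546 (minus strand) and 16074174 (plus strand) of chromosome 19 were methylated in 8 of 8 and 5 of 5 reads, 372 bp apart and 3070 and 2698 bp from the TSS. Near CR620402, another cDNA record, cytosines at 144153367 and 144153400 of chromosome 1, both on the plus strand and 33 bp apart, were methylated in 5 of 5 reads each. Sites 33 or 36 bp apart on the same strand can lie on the same DNA fragments, which the counts do not show.

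The other fully methylated sites stood alone. The cytosine near GNMT, the glycine N-methyltransferase that uses S-adenosylmethionine, was methylated in 6 of 6 reads at 43032129 of chromosome 6, 4348 bp from the TSS. That near COX7A1, a subunit of cytochrome c oxidase, was methylated in 5 of 5 reads at 41332709 of chromosome 19, and that near TREX1, a 3′ DNA exonuclease, in 5 of 5 reads at 48484883 of chromosome 3. Near the cDNA records AK095988 (44375414 of chromosome 22) and CR618043 (103937430 of chromosome 4) all 4 of 4 reads were methylated, the latter 1080 bp from the TSS and the nearest of the 20 to a TSS. The site listed for TUBB2C, a beta-tubulin gene, was methylated in 5 of 5 reads at 1939185 of the chromosome 6 haplotype sequence 6_qbl_hap2, whereas RefSeq places this gene (symbol TUBB4B) on chromosome 9.

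The remaining highly methylated sites had at least 1 unmethylated read. RPL15, a protein of the large ribosomal subunit, had 4 of 5 reads methylated at 23936917 of chromosome 3. NBPF1, of the neuroblastoma breakpoint family, had 4 of 5 methylated at the AGAACA cytosine at 16813795 of chromosome 1, while a TGTTCT cytosine 130 bp away was methylated in 0 of 5 reads. It was the only pair of sites within 1000 bp in which one was highly methylated and the other was not. STK25, a serine/threonine kinase, had 3 of 4 reads methylated, 4585 bp from the TSS. FBXL14, an F-box protein of a ubiquitin ligase, HNRNPUL1, a nuclear RNA-binding protein, and EIF2A, a translation initiation factor, each had 2 of 4. ACTG1, RPL15, tubulin and NBPF1 genes have near-identical copies elsewhere in the genome, and how reads with several matches were placed is not given in the sources used here, so their position is uncertain.

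**Figure D2:**
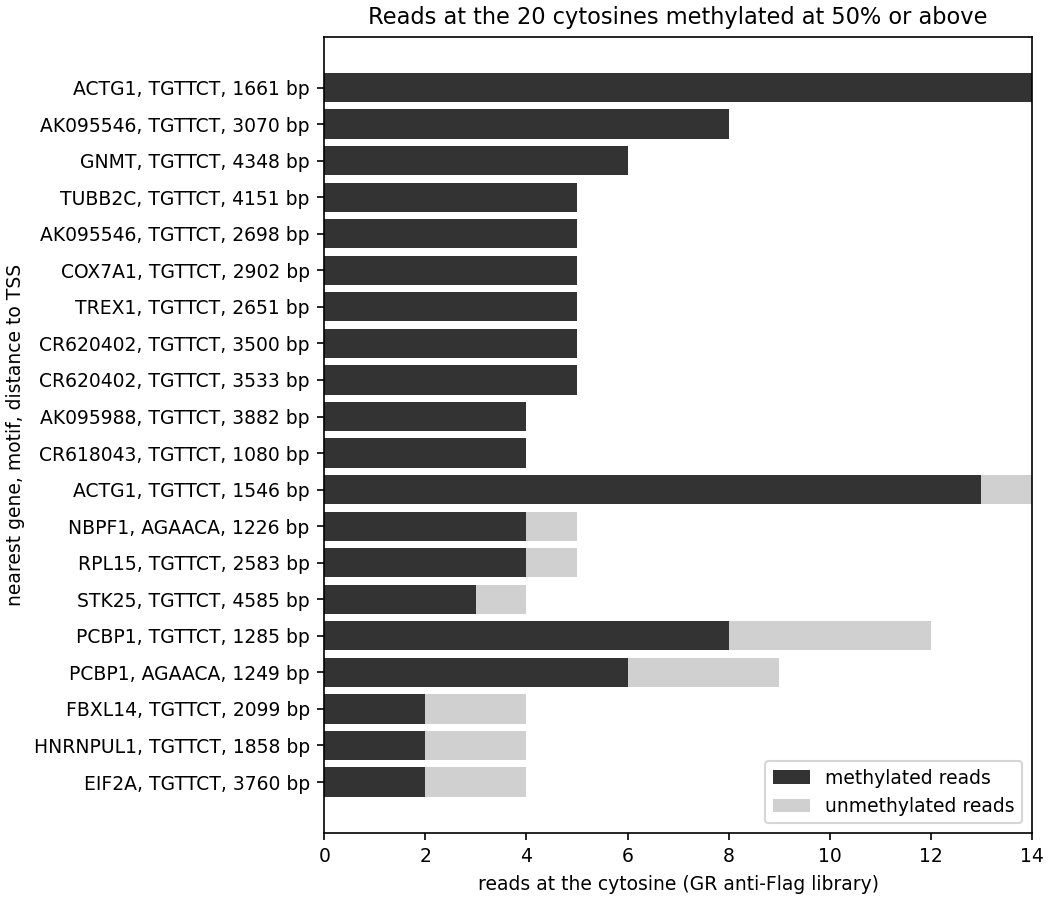
Each bar is 1 of the 20 highly methylated cytosines of the GR library, named by nearest gene, motif and distance to the TSS (bp), with its number of reads on the x axis split into methylated (dark) and unmethylated (light) reads. The bars at ACTG1 reach 14 reads and that of the TGTTCT site at PCBP1 12, and all other bars hold 9 reads or fewer.

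Each site was also set against the pooled level of its own motif in the GR library (2.06% for AGAACA, 2.29% for TGTTCT). The test was an exact binomial test, one-sided, adjusted by Benjamini-Hochberg over 8094 sites. It called 17 of the 706 sites (2.41%), where it called 1.12% of the sites over all distances. These were 15 TGTTCT sites (1.12% called over all distances) and 2 AGAACA sites (1.14% called over all distances). All 17 were highly methylated, and their adjusted p ran from 8.27e-21 at the first ACTG1 site to 0.00442 at STK25. The sites near FBXL14, HNRNPUL1 and EIF2A, with 2 of 4 reads, had an adjusted p of 0.203 and were not called. In the same range the test called 0 of 142 sites in GR IgG, where 5 had an unadjusted p under 0.05 (0.148% called over all distances), and 0 of 288 in BMAL1-CLOCK, where 14 had one (0.0459% called over all distances). Each library was set against its own pooled level, which was 7.63% (AGAACA) and 5.92% (TGTTCT) in IgG and 1.23% in BMAL1-CLOCK. The counts called thus rest on unequal levels. A TGTTCT site with 3 of 4 reads had an adjusted p of 0.377 near SCEL in IgG and 0.00442 near STK25 in GR. Against the IgG levels, the test called 16 GR sites of the range. At least 8 reads were held by 18 sites of the GR range, and the test called 5 of them.

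None of the 20 highly methylated cytosines was listed in the GR IgG library, where a site needed 4 or more reads. No listed IgG site lay within 1000 bp of any of them, so their level without the anti-Flag antibody is not known from these tables. By strand, 14 of them were on the plus strand and 6 on the minus strand, where all sites of the range numbered 356 and 350. This split was not tested, and some of the 14 are neighbours on 1 strand. Of the 20, 18 stood in capital letters and 2, near TUBB2C and NBPF1, in lower case, which by the usual genome convention marks repeats, although the sources used here do not state it. Among TGTTCT sites of the range, 17 of 389 in capitals were highly methylated (4.37%) and 1 of 194 in lower case (0.515%). This difference of 3.85 points passed the test (two-sided Fisher's exact p = 0.00961, adjusted over 12 comparisons 0.0288) and was looked at after the data were seen. For AGAACA the counts were 1 of 68 and 1 of 47.

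Of the 16 genes, 11 were matched to a RefSeq promoter (GRCh38.p14), and 2 of the 11, ACTG1 and HNRNPUL1, held AGAACA or TGTTCT in the 250 bases before the gene's start, as did 12.4% of 35116 promoters searched in the same window. The search took AGAACA and TGTTCT as exact letters, which covers both strands, since each is the complement of the other. The upstream sequences of the 2 named genes whose highly methylated sites had the most reads are shown with half-sites in capitals, ACTG1 from the minus strand (chr17:81512800-81513049) and PCBP1 from the plus strand (chr2:70087227-70087476). The measured cytosines lay over 1 kb from the TSS, outside these windows, and their positions, given in hg18, cannot be read on this build.
ACTG1: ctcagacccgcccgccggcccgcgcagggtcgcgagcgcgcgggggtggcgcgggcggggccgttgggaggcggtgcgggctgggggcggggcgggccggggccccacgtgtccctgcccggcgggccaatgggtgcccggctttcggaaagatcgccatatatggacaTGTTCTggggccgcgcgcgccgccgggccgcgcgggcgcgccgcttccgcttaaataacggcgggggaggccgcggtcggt
PCBP1: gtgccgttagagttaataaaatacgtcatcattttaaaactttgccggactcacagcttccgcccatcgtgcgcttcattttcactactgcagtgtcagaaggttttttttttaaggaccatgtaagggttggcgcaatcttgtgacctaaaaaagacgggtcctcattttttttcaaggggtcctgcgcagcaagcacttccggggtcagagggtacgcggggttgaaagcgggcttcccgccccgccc
The ACTG1 window held 1 half-site, TGTTCT on the strand of the gene, and that of PCBP1 none. A match is a description of the letters and not of binding. Whether the measured sites are exonic or intronic is not given here, since no hg18 annotation was used.

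The sites were next compared with those of GR at other distances, since the study related methylation to the distance from the TSS. TGTTCT sites between 1 and 5 kb were highly methylated less often than those within 1 kb of a TSS, at 3.05% against 10.3% (19 of 184). The difference of -7.28 points passed the test (two-sided Fisher's exact p = 2.06e-04, adjusted 0.00123). It also passed under 13 of 16 alternative settings, among them exactly 4 reads (1.32% against 5.07%, Fisher's exact p = 0.0153, unadjusted). It was not past the threshold at 8 or more reads (30.8% of 13 sites against 85.7% of 7, exact p = 0.0573), at 10 or more (exact p = 0.0808) or for fully methylated sites (1.86% against 4.35%, exact p = 0.0956). TGTTCT sites of the range were highly methylated more often than those from 5 to 100 kb, at 1.48% (60 of 4049), a difference of 1.56 points (Fisher's exact p = 0.00956, adjusted 0.0288). The second difference did not hold at equal depth, where sites of exactly 4 reads gave 1.32% against 1.02% (exact p = 0.470), nor with 1 site per gene (p = 0.123) or for hexamers in capitals alone (4.37% against 2.55%, p = 0.0656), and at 8 or more reads its sign turned (30.8% against 36.1%, p = 1). The share of TGTTCT sites in lower case moved with distance, from 17.4% within 1 kb to 32.8% at 1 to 5 kb and 44.1% at 5 to 100 kb, and its part in the result was tested only by the capitals-only values above.

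For AGAACA the shares were 1.74% at 1 to 5 kb and 1.76% (12 of 683) at 5 to 100 kb, a difference of -0.018 points (Fisher's exact p = 1). Within 1 kb of a TSS, 0 of 36 AGAACA sites were highly methylated (interval 0 to 9.74%). The fall seen for TGTTCT from within 1 kb was thus not seen for AGAACA, where it was not tested. The motifs did not differ past the threshold within the range (3.05% against 1.74%, Fisher's exact p = 0.757, adjusted 0.908). Their change between 1 to 5 kb and 5 to 100 kb did not differ past it either (exact test of equal odds ratios, p = 0.497). Sites within 1 kb were not in that test. With 115 AGAACA sites, the upper bound of 6.14% on their share lies above the whole interval of TGTTCT.

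Inside the range no trend with distance was seen. Highly methylated sites numbered 7 of 213 between 1 and 2 kb, 5 of 192 between 2 and 3 kb, 5 of 155 between 3 and 4 kb and 3 of 146 between 4 and 5 kb, with overlapping intervals. The TGTTCT shares in these 4 bins were 2.81%, 3.11%, 3.85% and 2.46%. Both highly methylated AGAACA sites lay between 1 and 2 kb. The sites at the limits of the range had no methylated read on either side. Those just outside and inside 1 kb were nearest SLC22A17 (980 bp), GSTO2 (982 bp), PLCH1 (1006 bp) and TMEM125 (1007 bp), each with 0 of 4 reads. Those around 5 kb were nearest BC036544 (4999 bp) and DQ593719 (5000 bp), with 0 of 5 reads each, and BZW2 (5003 bp) and A4GALT (5004 bp), with 0 of 4 each.

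**Figure D3:**
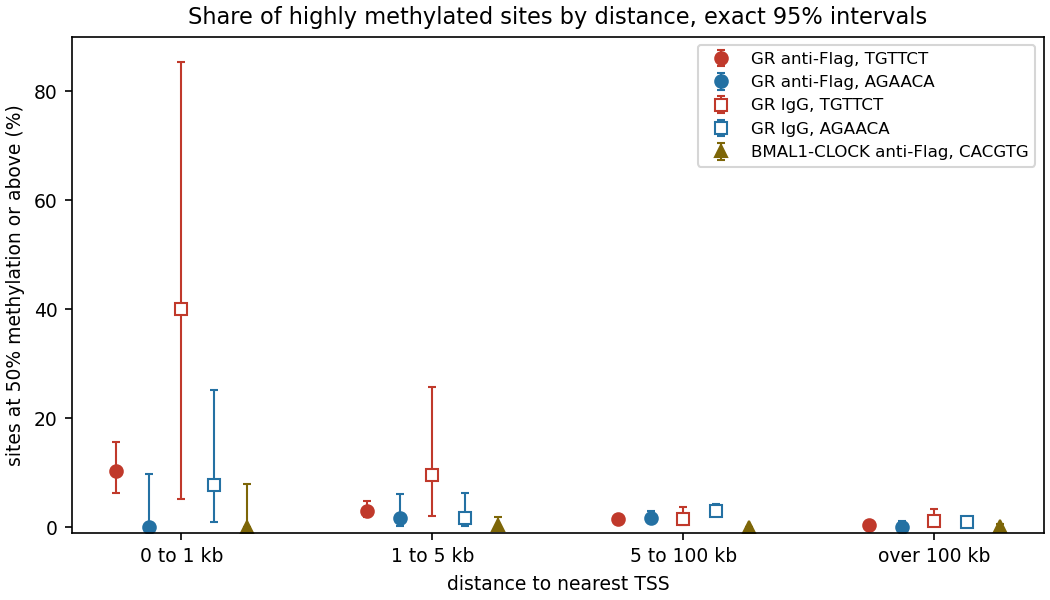
The share of sites (%) at a methylation level of 50% or above is plotted for 4 ranges of distance to the nearest TSS, by library and motif, with exact 95% intervals. TGTTCT in GR anti-Flag falls from 10.3% within 1 kb to 3.05% at 1 to 5 kb and 1.48% at 5 to 100 kb, and the interval of the 31 IgG TGTTCT sites at 1 to 5 kb spans 2.04 to 25.8%.

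The IgG control of GR served as a comparison between libraries, although few cytosines of the range were read in both. Lower-case hexamers made up 34.1% of the GR sites of the range and 52.1% of the IgG sites. The motifs were mixed differently, with 111 AGAACA and 31 TGTTCT sites in IgG at 1 to 5 kb where GR had 115 and 591. The libraries were therefore compared within a motif. Highly methylated TGTTCT sites made up 3.05% in GR and 9.68% (3 of 31) in IgG (2.14% there over all distances), which did not pass the test (two-sided Fisher's exact p = 0.0810, adjusted 0.122). For AGAACA the shares were 1.74% in GR and 1.80% in IgG (2 of 111, IgG at all distances 2.2%, Fisher's exact p = 1). For both motifs together they were 2.83% and 3.52% (5 of 142, IgG at all distances 2.19%, Fisher's exact p = 0.592). None of these tests placed the highly methylated share of GR above that of its control. At exactly 4 reads the TGTTCT share was lower in GR, at 1.32% against 11.1% (3 of 27, Fisher's exact p = 0.0105, unadjusted). Other settings turned the sign without passing the test. At 8 or more reads the TGTTCT shares were 30.8% (4 of 13) in GR and 0% (0 of 1) in IgG (exact p = 1), and for both motifs levels above 50% were reached by 2.41% against 0.704% (exact p = 0.336) and levels of 75% or above by 2.12% against 0.704% (exact p = 0.495). The effect of distance on TGTTCT did not differ past the threshold between the libraries (odds ratio of 1 to 5 kb over 5 to 100 kb 2.09 in GR and 6.58 in IgG, exact test of equal odds ratios, p = 0.157). In IgG the shares were higher within 1 kb of a TSS than at 1 to 5 kb. They were 40% for TGTTCT (2 of 5, interval 5.27 to 85.3%) and 7.69% for AGAACA (2 of 26). A fall from within 1 kb was therefore not particular to GR anti-Flag, and it was not tested in IgG.

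The libraries also differed in their methylated reads as a whole. The level pooled over all distances was 7.63% for AGAACA and 5.92% for TGTTCT in IgG, against 2.06% and 2.29% in GR, and in the range without NR3C1 it was 6.87% (41 of 597 reads) against 3.78%. In IgG, 28.8% of AGAACA sites (32 of 111) had at least 1 methylated read, against 3.48% (4 of 115) in GR, a difference of -25.4 points (two-sided Fisher's exact p = 9.27e-08, adjusted 1.11e-06). At all distances the shares were 29.4% in IgG and 3.41% in GR. For TGTTCT they were 16.1% (5 of 31) in IgG and 4.40% (26 of 591) in GR (Fisher's exact p = 0.0149, adjusted 0.0298), with 19.6% and 2.85% at all distances. Of the 37 IgG sites with a methylated read, 23 stood at 25%, which is 1 of 4 reads, and 5 were highly methylated (13.5%), where in GR 20 of 30 were (66.7%). Over all distances these shares were 8.03% (59 of 735) in IgG and 51.5% (122 of 237) in GR, so the contrast was one of the whole libraries, and no test set the range apart from it. The highest IgG site, near SCEL, a cornified envelope protein, had 3 of 4 reads methylated. Those near ZNF764, C3orf41, CR627203 and HNRNPH1 had 2 of 4. Full methylation was found at 0 of 142 IgG sites of the range, so that a share up to 2.11% is allowed, and at 11 of 706 in GR (1.56%). Over all distances it was found at 0.148% of IgG sites, 4 sites that all lay within 1 kb of a TSS, and at 0.68% of GR sites, 7 of which were AGAACA sites at 5 to 100 kb. These counts of sites with any methylated read were compared after the data were seen.

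**Figure D4:**
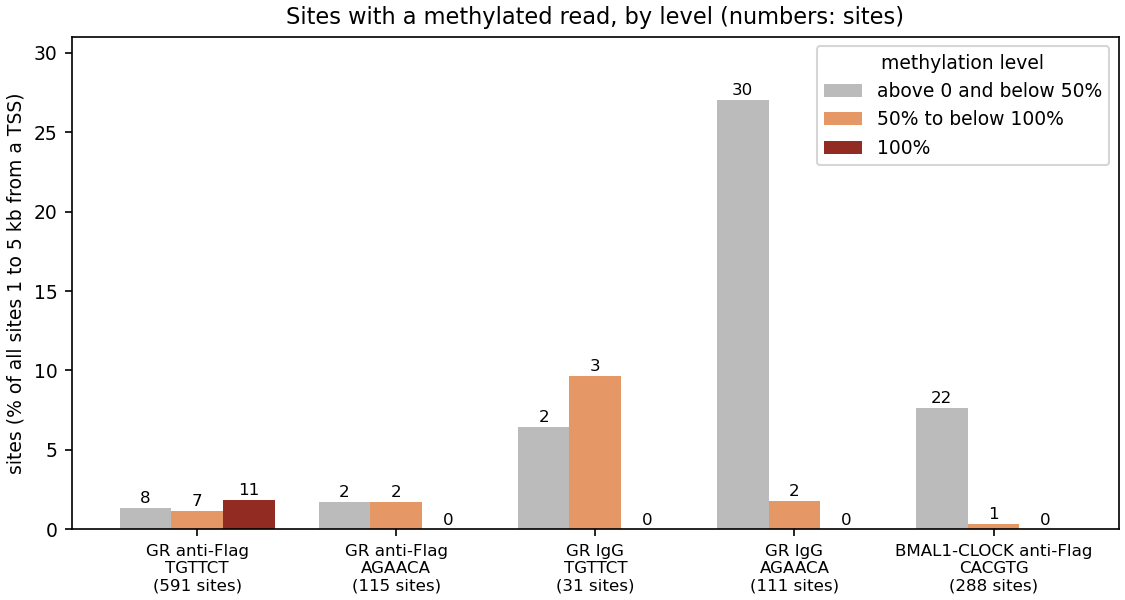
Bars give the share of sites (%) between 1 and 5 kb with a level above 0 and below 50%, from 50% to below 100%, or at 100%, for each library and motif, and the number on each bar is its count of sites. In this range only GR TGTTCT has fully methylated sites (11), while most methylated sites of IgG AGAACA (30 of 32) and BMAL1-CLOCK (22 of 23) are below 50%.

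The BMAL1-CLOCK anti-Flag library served as a second pull-down from cells with the same DNMT3A vector. Of its 288 CACGTG sites between 1 and 5 kb, 1 was highly methylated (0.347%, interval 0.00879 to 1.92%, all distances 0.115%), near DIRC1, with 2 of 4 reads. The GR share was 2.49 points higher (two-sided Fisher's exact p = 0.0128, adjusted 0.0298). At exactly 4 reads the shares were 1.10% and 0.562% (exact p = 1), and at a threshold of 25% the order was turned, with 3.68% in GR and 4.86% in BMAL1-CLOCK (exact p = 0.379). Sites with any methylated read were fewer in GR, at 4.25% against 7.99% (23 of 288, BMAL1-CLOCK at all distances 5.56%, Fisher's exact p = 0.0281, adjusted 0.0482). Full methylation was found at 0 of 288 BMAL1-CLOCK sites, so that a share up to 1.04% is allowed (0.0459% over all distances). Factor, motif, dexamethasone and library cannot be told apart in this comparison.

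The most deeply read half-sites of the range were nearly free of methylation. They were both strands of 1 hexamer nearest NR3C1, the gene of GR itself, at 142760098 to 142760103 of chromosome 5, about 2.4 kb from the TSS. The AGAACA cytosine was methylated in 9 of 3324 reads (0.271%) and the TGTTCT cytosine in 7 of 3393 (0.206%). The IgG library read the same cytosines with 14 of 379 (3.69%) and 26 of 477 (5.45%) methylated, and both levels were lower in GR (two-sided Fisher's exact p per site, adjusted over 64 shared sites, 1.22e-07 and 1.47e-16). Of those 64 sites, 4.69% were called lower in GR and 0% higher. GR had 8.77 and 7.11 times the IgG reads there. Over all listed sites GR held 51518 reads and IgG 14143, and at the mitochondrial cytosines of the range the ratio ran from 2.27 to 10.3. GR was also expressed from a vector, and reads of the vector and of the chromosome cannot be told apart from these counts.

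The next deepest hexamer lay near DQ590589 on unplaced sequence of chromosome 21, unmethylated on both strands with 0 of 42 and 0 of 16 reads, where IgG had 1 of 4 on the AGAACA strand (Fisher's exact, adjusted p = 0.727). The hexamer near PDE4DIP had 0 of 5 and 0 of 4. OR1C1, REXO1L1 and LOC283788 had sites with 0 of 13, 0 of 13 and 0 of 10 reads, and the first was read in IgG too, with 0 of 5. Together with the ACTG1 pair and the TGTTCT site of PCBP1 these made up the 10 sites with the most reads, so the sites of 10 or more reads were either at 66.7% or above (3 sites) or below 0.3% (7 sites). The other half-sites read in both libraries were nearest KIAA1245 and SEMA3D, with no methylated read in either.

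Sites near genes of the listed groups were few, as each list is short beside the 655 nearest genes. Of 35 glucocorticoid-induced genes on a list drawn up for the comparison, 1 was nearest to a site, FOXO1, a transcription factor of the insulin pathway, with 0 of 4 reads methylated. Of the nuclear receptor cofactors, MED1, a subunit of the Mediator, had 0 of 6 and NCOR1, a corepressor, 0 of 4. ZBTB33, which encodes the methyl-DNA binding protein Kaiso, had 0 of 6, and CSNK1E, a kinase of the clock proteins, 0 of 4. A count of 0 in 4 reads still allows a level of up to 75%. Among general housekeeping genes there were 3 sites, the ACTG1 pair and PKM2, the pyruvate kinase gene, with 0 of 4. Of 5 sites near genes whose names start with RPL or RPS, RPL15 alone was methylated, and those of RPL24, RPL13AP3, RPL13A_6_816 and RPS6KC1, a kinase and not a ribosomal protein, had 0 of 4 or 5. Zinc finger genes (ZNF) had 11 sites with 46 reads and olfactory receptor genes 12 sites with 57 reads, none methylated, which allows up to 6.52% and 5.26% of reads. The single histone gene site, HIST1H3H, had 0 of 4, and no site was nearest a cadherin or protocadherin gene. For all 706 sites the median level was 0 and the highly methylated share 2.83%.

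The 5 mitochondrial sites were listed at 1 to 5 kb from a TSS and held 77 to 1499 reads in GR anti-Flag and 10 to 145 in GR IgG. TGTTCT cytosines at 3220 and 3815 (minus strand) were methylated in 9 of 1093 reads (0.823%) and 51 of 1499 (3.40%) in GR, against 10 of 106 (9.43%) and 13 of 145 (8.97%) in IgG. Both were lower in GR (two-sided Fisher's exact p, adjusted over the 5 sites, 4.55e-06 and 0.00715). The AGAACA cytosines at 3223 and 4114 had 4 of 109 and 1 of 84 reads methylated in GR, and 2 of 25 and 4 of 37 in IgG (Fisher's exact, adjusted p = 0.311 and 0.0502). The TGTTCT cytosine at 4117 on the plus strand, 3 bp from that at 4114 on the other strand of the hexamer, went the other way, with 27 of 77 reads (35.1%) in GR and 1 of 10 (10%) in IgG, and did not pass the test (Fisher's exact p = 0.158, adjusted 0.197).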

How the data were processed

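BisChIP-seq was analysed for 4 libraries of HEK-293T cells, 1 per group, with groups taken from the sample labels. For each library the authors pooled 2 sequencing runs, mapped the reads to hg18 with Bismark, dropped the overlap of mates, removed PCR duplicates with SAMtools and kept cytosines with 4 or more reads. Tool versions were not given. The deposited counts, one of methylated reads and one of total reads at each cytosine, are raw and came with strand, nearest gene and unsigned distance to the TSS. The depth outside listed sites is not known. The motif was taken from the table, because both GR tables print AGAACA as their sequence. In the distance range, 155 of the 706 sites were listed more than once with identical counts (947 entries) and were counted once. The repeats were uneven, with 316 entries for the 115 AGAACA sites and 631 for the 591 TGTTCT sites. The 2 motif tables may thus have been made differently, which limits comparisons of the motifs.

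The methylation level is the share of methylated reads. Exact Clopper-Pearson intervals (95%), Fisher's exact tests, exact conditional tests of equal odds ratios and one-sided exact binomial tests per site were run in Python 3.11.15 with scipy 1.17.1 and pandas 2.3.3, and the binomial and Fisher tests were checked on simulated data. Benjamini-Hochberg adjustment of the Fisher tests was over 12 comparisons, 8 planned and 4 added after the data were seen. Beside a count of 0 stands the limit of 3 counts over the total. Without molecular identifiers, reads cannot be shown to be independent molecules even after duplicates are removed, and the binomial tests treat them as independent. Gene symbols matched RefSeq for 472 of 706 sites, 4 of them on another chromosome than listed. The site listed for TUBB2C, now TUBB4B, is not among these 4.

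The sites, gene lists and tests were chosen with earlier results of these data known. Sites are named if they are highly methylated, among the 10 with the most reads, read on both strands or in both GR libraries, at the limits of the range, or nearest a gene of a fixed list. Alternatives changed the coverage minimum, threshold, distance range and counting of neighbouring, repeated, unplaced, transfected-gene and mitochondrial sites. ChIP-seq libraries that had not been bisulfite-converted were not used here.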

Additional observations from a re-analysis of the deposited data

Results flagged for a closer look

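One result stood outside the comparisons above. The mitochondrial TGTTCT site at position 4117 on the plus strand was methylated in 35.1% of reads (27 of 77) in the GR anti-Flag library, above the 10% (1 of 10) of the IgG control at the same cytosine, and it was singled out because mitochondrial sites entered no comparison by distance. The difference did not pass the test (two-sided Fisher's exact p = 0.158, adjusted over 5 sites 0.197). At 4114, the opposite strand of this hexamer, 1 of 84 reads was methylated in GR and 4 of 37 in IgG.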

How the results depend on the processing

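No paired analysis was possible because each group held 1 library. Values are the highly methylated shares at 1 to 5 kb (%) or differences of shares in points, and the p-values are from Fisher's exact test, unadjusted. Of 129 alternative values for comparisons, 94 kept their direction and side of the threshold, 10 fell below it, 5 rose above it and 20 changed sign, most of them where the reported difference was under 1 point. Of 32 alternative shares, 8 moved outside the interval of the reported share, and 1 of 5 counts of called sites fell by over 1.5 times. The comparison of the motifs stayed without a call under all 16 alternatives, and the lower share of TGTTCT at 1 to 5 kb than within 1 kb passed under 13 of 16.

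At 8 or more reads the TGTTCT and AGAACA shares were 30.8 and 20%, and the TGTTCT differences were -54.9 to 1 kb or less (exact p = 0.0573), -5.34 to 5 to 100 kb, and 30.8 to IgG. GR less IgG was 20 for AGAACA and 27.8 for both motifs, GR less BMAL1-CLOCK 27.8 (exact p = 0.274), and single sites called numbered 5. At 10 or more reads the shares were 37.5 and 0%, and the same differences were -62.5 (exact p = 0.0808), -15.1, 37.5 to IgG, 30 for both motifs and 30 to BMAL1-CLOCK (exact p = 1). At exactly 4 reads the shares were 1.32 and 0%, TGTTCT less 5 to 100 kb was 0.300 (exact p = 0.470), GR less IgG -9.80 for TGTTCT (exact p = 0.0105) and -3.24 for both motifs (exact p = 0.0285), and GR less BMAL1-CLOCK 0.543 (exact p = 1).

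A threshold of 25% gave 1.32 for TGTTCT less 5 to 100 kb (exact p = 0.0779), -9.01, -19.0 and -16.0 for GR less IgG in TGTTCT sites, AGAACA sites and both (exact p = 0.0396, 6.76e-06 and 7.08e-10), and -1.18 for GR less BMAL1-CLOCK. A threshold of 75% gave 0.870 (AGAACA) and 1.42 (both) for GR less IgG, and levels above 50% gave 1.74 and 1.70, and 0.129 for AGAACA less 5 to 100 kb. With repeated entries kept, AGAACA less 5 to 100 kb was 0.674 and GR less IgG 0.730 in AGAACA. Counting sites within 200 bp once, or 1 site per gene, gave 0.802 for the latter, and 1 site per gene gave 0.985 for TGTTCT less 5 to 100 kb (exact p = 0.123). From 2 to 5 kb the AGAACA share was 0%, and from 1 to 10 kb AGAACA exceeded the more distant sites by 0.517. Chosen after seeing the data, hexamers in capitals gave 1.82 for TGTTCT less 5 to 100 kb (exact p = 0.0656). Fully methylated sites, also chosen then, gave 0% of AGAACA, -2.49 for TGTTCT less 1 kb or less (exact p = 0.0956), and 1.86 (TGTTCT) and 1.56 (both) for GR less IgG. The cause of these changes was not tested.

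Depth limits these values: with 4 reads at 76.9% of sites, a level can take 5 values, and the upper bound on 2 of 115 AGAACA sites is 6.14%.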
